A study of Mus musculus with 6 samples.

Results

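The odorant receptor arrays of mouse chromosome 2 are 3 stretches of the mm9 genome at 36 to 37.5 Mb, 85.2 to 90.2 Mb and 111 to 112.3 Mb, called here the proximal, middle and distal array. They were read as islands of histone H3 lysine 9 trimethylation (H3K9me3), and an island belonged to an array when its midpoint lay inside these limits. Of the 12565 islands deposited for 4 libraries, 991 were in the arrays, and joining islands that overlapped between libraries gave 262 array regions out of 5845 regions in the genome. The proximal array held 47 of these regions, the middle array 180 and the distal array 35.

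The 4 H3K9me3 libraries came from 4 adult mice (2 to 6 months old), 2 controls and 2 mutants, in 2 pairs of littermates. The mice carried K5Cre, a Cre transgene under the keratin 5 promoter, which in the olfactory epithelium is active in the horizontal basal stem cells. Control mice had 1 floxed and 1 wild-type Lmnb1 allele (Lmnb1 fl/+) and mutant mice had 2 floxed alleles (Lmnb1 fl/fl), in which Cre removes exon 2. A tdTomato reporter (R26 Ai9) marked the cells in which Cre had acted and all their descendants. The sorted Tomato-positive cells were thus presumptively Lmnb1+/- in controls and Lmnb1-/- in mutants, and no library was of wild-type cells. By antibody staining, the paper still found lamin B1 in a small minority of the Tomato-positive cells of mutant epithelium. All mice received methimazole, which damages the olfactory epithelium, in 2 injections of 50 mg/kg each. They recovered for 4 weeks while basal cells rebuilt the tissue. Pair 1 and pair 2 belonged to treatment groups 3 and 4. About 500000 cells of 1 mouse on a mixed background went into each sample, and they are a mix of stem cells, progenitors, neurons and supporting cells, so a change in the mix and a change within 1 cell type cannot be told apart. Expression was not analysed here, so the cell types were not checked by their markers. H3K4me3, a mark of active promoters, was measured in the same cells of pair 1 only, in 1 control and 1 mutant library.

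Odorant receptors are the G protein-coupled receptors with which olfactory sensory neurons detect odours, and a mature neuron expresses a single allele of a single receptor gene. The genes lie in tandem arrays, and in the olfactory lineage the silent copies are packed into heterochromatin that carries H3K9me3 and H4K20me3 and gathers in a few nuclear foci. Lmnb1 encodes lamin B1, a structural protein of the nuclear lamina, to which heterochromatin is often tethered.

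The gene content of the arrays can be given by name only, since the annotation at hand is of GRCm38.p6 and not of mm9. In RefSeq the 377 Olfr genes of chromosome 2 form 3 runs in which the next receptor starts within 500 kb of the one before. From Olfr334-ps1 to Olfr368, between Ptgs1 and Pdcl, there are 37 receptor genes, of which 28 are protein coding. The largest run, from Olfr987 to Olfr1274 between Lrrc55 and Ptprj, has 293 receptor genes with 222 protein coding, and 3 protein-coding genes that are not Olfr genes lie within it. The last run, from Olfr1275 to Olfr1319-ps1, lies between A26c3 and Lpcat4 and has 47 receptor genes, of which 37 are protein coding. The runs were not placed on the coordinates of the islands.

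To show the sequence around an annotated receptor start, 1 gene of each run is printed (GRCm38.p6, 250 bases before to 50 after the start, 5′ to 3′). It is the first protein-coding receptor whose RefSeq start sequence holds TAATTA, with that motif in capitals. In each printed gene the 50 bases after the start begin with ATG, the codon at which translation starts. The annotated start is thus that of the coding sequence, and the transcription start and promoter may lie further upstream. TAATTA is the core that LIM homeodomain proteins such as Lhx2 recognise, and it reads the same on both strands.
Olfr348 (+ strand): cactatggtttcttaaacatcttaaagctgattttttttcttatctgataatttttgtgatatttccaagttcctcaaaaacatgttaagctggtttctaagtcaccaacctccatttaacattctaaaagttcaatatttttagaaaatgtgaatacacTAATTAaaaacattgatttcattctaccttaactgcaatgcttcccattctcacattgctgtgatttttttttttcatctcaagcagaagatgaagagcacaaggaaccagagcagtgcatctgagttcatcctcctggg
Olfr992 (- strand): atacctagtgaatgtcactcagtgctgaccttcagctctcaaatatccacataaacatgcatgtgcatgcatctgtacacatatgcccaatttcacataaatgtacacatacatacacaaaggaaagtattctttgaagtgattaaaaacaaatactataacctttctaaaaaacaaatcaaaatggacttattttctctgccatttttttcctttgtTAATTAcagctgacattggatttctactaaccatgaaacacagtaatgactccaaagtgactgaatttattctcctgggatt
Olfr1277 (- strand): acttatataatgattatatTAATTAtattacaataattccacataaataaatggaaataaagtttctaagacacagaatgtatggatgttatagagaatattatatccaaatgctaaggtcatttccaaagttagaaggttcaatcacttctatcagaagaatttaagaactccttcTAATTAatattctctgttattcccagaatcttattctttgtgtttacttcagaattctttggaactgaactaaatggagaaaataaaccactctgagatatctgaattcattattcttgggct

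Of the 377 receptor genes, 243 matched such a start sequence by symbol. TAATTA was held by 60 of these (24.7%), against 1436 of all 27025 start sequences (5.31%). In the 3 runs the share was 18.5% of 27, 24.7% of 186 and 30% of 30 sequences. The receptor sequences were 67.4% A or T, against 46.4% over all sequences, and the motif was not compared at equal base composition. How many annotated starts are coding starts was not counted, so the shares may compare unlike windows. A match is a description of the sequence and says nothing of binding. These sequences were not tied to any island.

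The depth and yield of the libraries bear on every value below. SICER, the program with which the islands were called, sums over 200 bp windows how improbable the reads of a window are given the average of its library, and from the scores of the shortest islands the average was found to be 1.41 and 2.54 reads per window in control 1 and 2 and 1.43 and 2.18 in mutant 1 and 2. Control 2 had 5658 islands, and mutant 2, the second deepest library, had the fewest, 1964, against 2038 in control 1 and 2905 in mutant 1. The main tested summaries are therefore also given with single libraries left out.

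The arrays held most of the H3K9me3 islands of chromosome 2. Member islands numbered 231 and 322 in the controls and 243 and 195 in the mutants, between 5.69% and 11.3% of the islands of a library, and they made up 67.7% to 81.3% of all the base pairs that islands covered on chromosome 2. The middle array alone held between 50.9% and 63.7% of that covered length.

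Within their limits, islands covered 36.2% and 44.2% of the 3 arrays in the controls and 40.9% and 28.3% in the mutants (replicate 1 before replicate 2, here and throughout). In the 1 Mb flanks on both sides of each array the share was 0.480% and 0.583% in the controls and 0.287% and 0% in the mutants. The difference between arrays and flanks was 37.1 ± 6.68 percentage points (SD, n = 4 libraries) and was above 0 in 4 of 4 libraries (exact sign-flip permutation test, two-sided, p = 0.125, the smallest that 4 libraries can give), and 34.9 to 39.98 with any 1 library left out. No island of any library touched either flank of the proximal array. In the flanks of the other arrays the highest share was 1.56%, in the upper flank of the distal array in control 1.

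**Figure D1:**
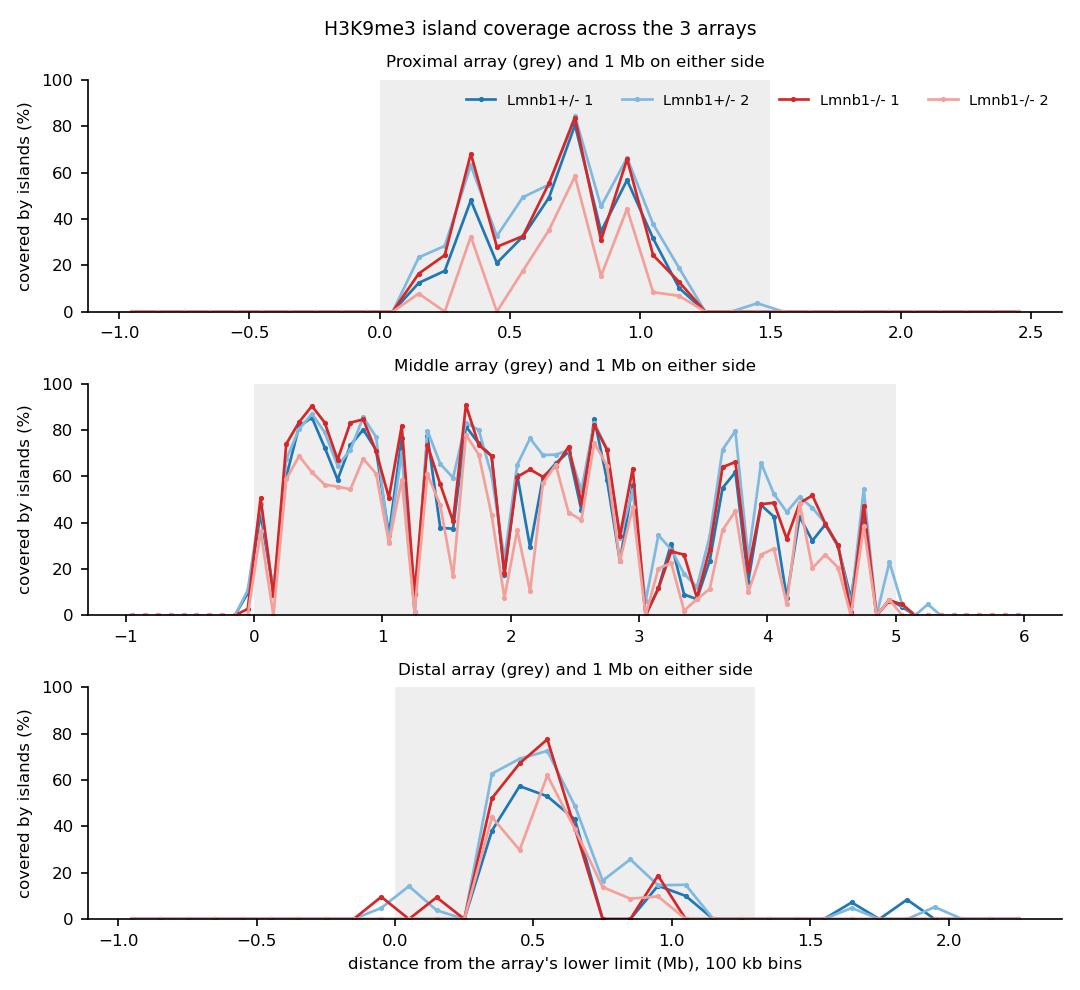
Percent of each 100 kb bin covered by H3K9me3 islands (y axis) against distance from the lower limit of each array in Mb (x axis), with 1 line per library and the array in grey. Coverage rises from near 0 in the 1 Mb flanks to a highest bin of 84.4% in the proximal, 90.8% in the middle and 77.6% in the distal array, and the 4 libraries share most of their ups and downs, with the widest spread, 10.4% to 76.4%, in a bin of the middle array.

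The middle array was the most densely covered and the distal array had the lowest mean. In the middle array islands covered 44.2% and 51.9% in the controls and 49.7% and 35.5% in the mutants. The proximal array was covered to 26.3% and 33.9% in the controls and to 29.5% and 15.1% in the mutants. The distal array was covered to 16.6% and 26.4% in the controls and to 20.3% and 15.9% in the mutants. The middle array exceeded the proximal one by 19.1 ± 1.35 percentage points and the distal one by 25.5 ± 4.27 (SD, n = 4), each in 4 of 4 libraries (exact sign-flip permutation p = 0.125). The distal array was lower than the proximal one in 3 of 4 libraries, by a mean of 6.38 ± 4.90 percentage points, and mutant 2 had the opposite order (exact sign-flip permutation p = 0.25).

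The arrays differed less when measured between the edges of the mark. The outermost regions that had an island in all 4 libraries spanned chr2:36173001-37186200 in the proximal, chr2:85236201-90136000 in the middle and chr2:111309001-111948000 in the distal array, which is 1.01 Mb, 4.90 Mb and 0.639 Mb. Between these edges islands covered 38.9%, 48.7%, 43.1% and 22.3% of the proximal array in control 1, control 2, mutant 1 and mutant 2. For the distal array the values were 31.0%, 48.6%, 38.9% and 32.4%. For the middle array they were 45.1%, 52.8%, 50.7% and 36.2%, so that the middle array exceeded the proximal one by 7.93 ± 4.23 and the distal one by 8.44 ± 5.20 percentage points (SD, n = 4), again in 4 of 4 libraries. The proximal and distal arrays then differed by a mean of -0.516 percentage points (distal minus proximal), less than the spread of 7.72 between libraries. These edges were set after the islands had been seen.

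The edges differed in how abrupt they were. At the lower edge of the distal array the first 20 kb inside were covered to 91.0% and 100% in the controls and 98.0% and 97.0% in the mutants, and the 20 kb outside to 38% and 0% in the controls and 30% and 0% in the mutants. At the lower edge of the middle array the 20 kb inside were covered to 73%, 70%, 83% and 67% in control 1, control 2, mutant 1 and mutant 2, and only control 2 had any island in the 20 kb outside (18.0%). The inside values are high in part because a region found in all 4 libraries defines the edge. At the upper edge of the distal array the 20 kb inside were covered to 72% and 73% in the controls and 94% and 49% in the mutants, and the 20 kb outside to 0% in all 4. At the lower edge of the proximal array the inside was covered to 62% and 81% in the controls and 82% and 39% in the mutants, and the outside to 36% in control 2 and 0% in the others. The upper edge of the proximal array was not abrupt in every library, with 51% and 28% inside in the controls and 32% and 34% in the mutants, against 0% and 20% outside in the controls and 32% and 0% in the mutants. The upper edge of the middle array had 34% and 62% inside in the controls and 32% and 34% in the mutants, against 29% outside in control 2 and 0% in the others, with 6.40% to 17.2% of the last 100 kb covered over the 4 libraries. Beyond the outermost island of the proximal array no library had another island for at least 6072 kb on the lower side and 1713 kb on the upper side.

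Within the middle array coverage was not even. In the 30 bins of its lower 3 Mb islands covered 56.6%, 62.5%, 62.7% and 46.7% in control 1, control 2, mutant 1 and mutant 2, against 25.6%, 36.1%, 30.3% and 18.8% in the 20 bins of its upper 2 Mb. The lower part was thus covered 1.73 to 2.48 times as densely in every library, a division chosen after the values were seen. The fullest 100 kb bin, chr2:86800001-86900000, was covered to 81.6% and 83.2% in the controls and 90.8% and 78.0% in the mutants. Over the 50 bins, Pearson's r between libraries was 0.872 to 0.957, a description over bins that share their libraries.

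**Figure D2:**
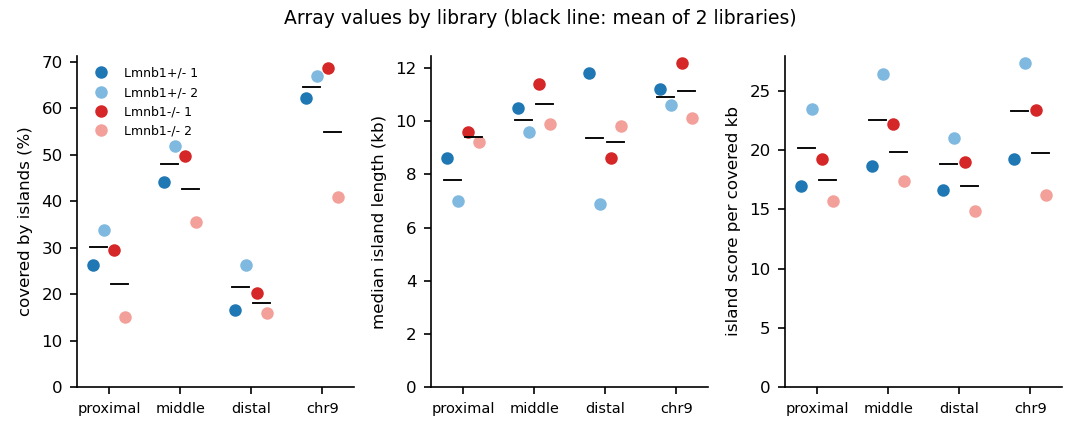
Covered percent, median island length in kb and island score per covered kb (y axes) for the proximal, middle and distal arrays of chromosome 2 and the array of chromosome 9 (x axis), with 1 point per library and a black line at the mean of the 2 libraries of a genotype. Mutant 2 is the lowest library in covered percent in every array, and control 2 is the highest in score per covered kb.

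Islands in the arrays had a higher median length than the other islands of the genome. The median island measured 10 and 8.40 kb in the controls and 10.6 and 9.80 kb in the mutants, against 8.60 and 5.60 kb and 8.40 and 8 kb over the other islands of the genome. The difference was 0.36 ± 0.16 on the log2 scale (SD, n = 4 libraries), above 0 in 4 of 4 libraries (exact sign-flip permutation p = 0.125, the smallest possible), and 0.28 to 0.40 with any 1 library left out. Islands of 20 kb or more held 29.1%, 29.2%, 35.3% and 16.8% of the covered length of the arrays, against 21.6%, 11.3%, 20.6% and 10.3% elsewhere. The longest single island was 73.4 kb, in the middle array of control 2. Length was not particular to chromosome 2, as the median island of the chromosome 9 receptor array at 38 to 40 Mb was 11.2 and 10.6 kb in the controls and 12.2 and 10.1 kb in the mutants.

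Between islands the arrays were interrupted by short gaps. SICER joins windows across up to 600 bp, so that short gaps cannot be seen at all, and the median gap in the middle array was 6 and 4 kb in the controls and 5.30 and 7.40 kb in the mutants. Gaps under 2 kb made up 28.7%, 36.9%, 32.0% and 24.2% of the gaps of the middle array in control 1, control 2, mutant 1 and mutant 2. Gaps of 50 kb or more in the middle array numbered 13, 10, 10 and 17. In the proximal array the median gap was 6.30, 5.50 and 6.20 kb in control 1, control 2 and mutant 1 but 19.6 kb in mutant 2, which had 22 islands there against 41, 57 and 41. In the distal array it was 11.6 and 4.40 kb in the controls and 6.50 and 11.9 kb in the mutants.

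Where no library had an island, the stretches were long in the outer arrays. The longest in the proximal array were chr2:37193401-37408600 (215.2 kb) and chr2:36000001-36156200 (156.2 kb), of which the latter begins at the lower limit. Those of the distal array were chr2:112048601-112300000 (251.4 kb), which ends at the upper limit, and chr2:111146601-111300400 (153.8 kb). In the middle array the longest were chr2:89996201-90102000 (105.8 kb) and chr2:88219801-88325000 (105.2 kb), and the second of these lies at the change from the densely to the thinly covered part. In all, 41% of the middle array, 61.5% of the proximal and 69.2% of the distal array had no island in any library. These are shares of windows of 5 Mb, 1.5 Mb and 1.3 Mb. In GRCm38.p6 the receptor runs measure 1.05 Mb, 5.07 Mb and 0.937 Mb in chromosome order, so parts of the outer windows may hold no receptor gene.

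The score per covered kb measures how strongly the covered length was marked, and it also rises with depth. In the arrays it was 18.3 and 25.4 in the controls and 21.5 and 17.0 in the mutants, and over the other islands of the genome 21.8, 25.3, 22.5 and 24.0. The log2 ratio of arrays to the rest was -0.20 ± 0.22 (SD, n = 4) and below 0 in 3 of 4 libraries (exact sign-flip permutation p = 0.25). It was -0.10 without mutant 2, and -0.27 to -0.18 without any other single library. Its direction rested on a few regions of very high score elsewhere, since without the 10 highest scoring regions of the genome it was 0.11 on the log2 scale (exact sign-flip permutation p = 0.375). The median score of a single island was higher in the arrays, at 163, 182, 205 and 157, than elsewhere, at 114, 93.8, 116 and 115, in the same order. That score is summed over the windows of an island and so rises with its length, and array islands had the higher median length. Among the arrays the score per covered kb was highest in the middle one in 4 of 4 libraries, by 0.17 ± 0.03 over the proximal and 0.24 ± 0.07 over the distal array on the log2 scale (exact sign-flip permutation p = 0.125 for each).

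The longest joined regions were all in the middle array and were marked in every library. The region chr2:85956201-86056400 was 100.2 kb long, the longest of the arrays, and islands covered 91.8% and 95.8% of it in the controls and 96.8% and 85.6% in the mutants. Its score was 2167 and 3254 in the controls and 2799 and 1873 in the mutants. The next, chr2:86845001-86929000 (84.0 kb), scored 1702 and 2454 in the controls and 1999 and 1354 in the mutants. The third, chr2:87883601-87957000 (73.4 kb), was a single island in control 2 and was broken into 3, 2 and 3 islands in control 1, mutant 1 and mutant 2. Ranked by the lowest of their 4 scores these were also the top array regions, followed by chr2:87458601-87515800 (57.2 kb), where the lowest score was 1008, and chr2:85584801-85635000 (50.2 kb), where it was 695. In all 5, mutant 2 had the lowest score and control 2 the highest. Mutant 1 scored higher than control 1 in each of them, so the genotypes overlapped.

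The longest regions of the outer arrays were shorter. In the proximal array they were chr2:36696201-36740400 (44.2 kb), chr2:36839801-36867600 (27.8 kb) and chr2:36741401-36766800 (25.4 kb). The first was covered to 93.2% and 88.7% in the controls and 88.7% and 64.3% in the mutants, and the second to 87.8% and 89.2% in the controls but 66.2% and 22.3% in the mutants. In the distal array they were chr2:111519601-111556800 (37.2 kb), chr2:111447801-111476800 (29.0 kb) and chr2:111576401-111600200 (23.8 kb). The first of these was covered to 55.4% and 97.8% in the controls and 97.8% and 69.9% in the mutants, with no order by genotype.

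A larger share of array regions than of other regions had an island in all 4 libraries. Of the 262 regions, 139 were in all 4 (53.1%, exact 95% binomial interval 46.8% to 59.2%, which covers counting error only), 39 in 3 libraries, 31 in 2 and 53 in 1. In the rest of the genome 869 of 5583 regions (15.6%) were in all 4 libraries and 2989 (53.5%) in 1. Among regions of 10 to 20 kb, 63 of 94 array regions (67.0%) and 335 of 1167 others (28.7%) were in all 4, and among those of 5 to 10 kb, 19 of 83 (22.9%) and 234 of 2575 (9.09%). At 20 kb or more it was 56 of 58 (96.6%) in the arrays and 260 of 324 (80.2%) elsewhere. These shares are a description, as neighbouring regions are not replicates. Islands lay far more densely in the arrays than in their flanks, and islands of different libraries meet more often where coverage is dense. The shares were not compared at equal coverage. Length here is that of the joined region, which can only grow as more libraries add islands to it.

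By array, the share of regions in all 4 libraries was 59.4% in the middle, 40.4% in the proximal and 37.1% in the distal array. Regions found in all 4 libraries had a median length of 17.0 kb, against 5.60 kb for those in 1. Part of that difference comes from the joining, since a region spans the islands of all its libraries. Of the 53 regions in a single library, 48 were in control 2, 3 in mutant 1, 2 in mutant 2 and 0 in control 1, and the 48 had a median score of 77.6 there, against 388 for the regions in all 4. Of the 39 regions that lacked 1 library, 33 lacked mutant 2, 5 control 1, 1 mutant 1 and 0 control 2.

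**Figure D3:**
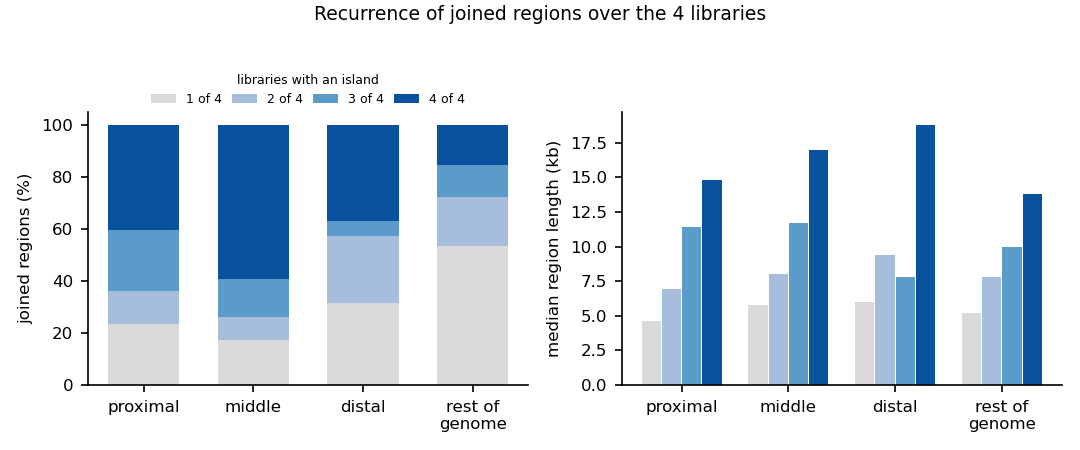
Percent of joined regions that had an island in 1, 2, 3 or 4 libraries (left) and their median length in kb (right), for each array and for the rest of the genome. The darkest part, regions in all 4 libraries, is 40.4% of the proximal, 59.4% of the middle and 37.1% of the distal array, against 15.6% elsewhere.

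The libraries also overlapped base by base. Over the 6 pairs of libraries the length shared inside the arrays was on average 66.6% of the length covered by either, from 57.5% to 75.6%, against 38.1% (29.9% to 45.4%) in the rest of the genome. Densely covered stretches share more length by position alone, and the arrays and the rest were not compared at equal coverage. The pair with the most shared length in the arrays was control 2 and mutant 1, of different genotype and litter, with 75.6%, and control 1 and mutant 1, littermates, had 74.9%. The 2 controls shared 71.0% and the 2 mutants 59.8%. The 3 pairs that included mutant 2 were the lowest, at 57.5% to 61.0%. This measure falls when 1 of the 2 sets is small, and mutant 2 had the least covered length in the arrays. As a share of the smaller set, overlap was highest for control 2 and mutant 2 (93.5%) and lowest for control 1 and mutant 2 (86.4%). The 2 controls then shared 92.2% and the 2 mutants 91.6%. By both measures the highest pair was of different genotype.

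The 2 genotypes allow the question of whether H3K9me3 in the arrays differed where lamin B1 was lost. The covered share of the 3 arrays was 40.2 ± 5.66% in controls and 34.6 ± 8.92% in mutants (SD, n = 2 each). The difference of -5.55 percentage points was smaller than the spread within mutants (exact permutation test, two-sided, p = 0.667, where 0.333 is the smallest possible). In pair 1 the mutant was higher by 4.76 percentage points, and in pair 2 the difference was -15.9. Without mutant 2 the difference was 0.756 percentage points, of the other sign.

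The score per covered kb gave the same picture. It was 21.8 ± 5.05 in controls and 19.3 ± 3.17 in mutants (SD, n = 2), a log2 ratio of -0.17 (exact permutation p = 0.667), with 0.23 in pair 1 and -0.58 in pair 2. Without control 2 it was 0.066 on the log2 scale. Each array on its own had the same split: the mutant was covered more than its littermate in pair 1 by 3.21, 5.49 and 3.71 percentage points in the proximal, middle and distal array, and less in pair 2, with differences of -18.8, -16.4 and -10.5. An enrichment was also worked out from score and depth, in reads per window over the average of the library. It was 3.10 and 2.95 in the controls and 3.43 and 2.45 in the mutants, lowest in mutant 2. This measure uses called islands only, so it may still vary with depth. It was lower in the 2 deeper libraries, but the deepest, control 2, was not the lowest. Whether depth accounts for the values of mutant 2 was not tested.

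Single regions were compared with limma on log2(score + 64.7) over the 2803 regions of the genome that had an island in at least 2 libraries, after each library was shifted to a common median. None of the 209 array regions tested passed an adjusted p of 0.05 (smallest limma adjusted p 0.815), where 0.0357% of all regions did. At an unadjusted p under 0.05, 1 array region was higher and 3 were lower in mutants, against 1.89% and 3.92% of all regions. The median difference was -0.08 over the array regions and 0.08 over all regions tested on the log2 scale. Without the shift these medians were -0.26 and -0.11. With a pseudocount of 1 in place of 64.7, 4 array regions passed, 1 higher and 3 lower in mutants, among 189 of the 2803 regions. In both pairs alike, 18 array regions (8.61%) were higher in the mutant and 73 (34.9%) lower, against 15.6% and 25.7% of all regions tested. In pair 1 the mutant was higher in 81 of the 209 array regions, with a median difference of -0.09 on the log2 scale, and in pair 2 in 73, with a median of -0.17, where the medians over all regions tested were -0.03 and -0.27.

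The 4 regions with an unadjusted p under 0.05 moved the same way in both pairs. Choosing regions by this p on the same values largely requires that, so it adds no support. The only one that was higher in mutants, chr2:86222201-86239000 (16.8 kb, middle array), had no island in either control and scores of 105 and 149 in the mutants. The region chr2:86763801-86783600 (19.8 kb, middle array) scored 199 and 346 in the controls, 94.5 in mutant 1 and 0 in mutant 2. The region chr2:36222401-36229400 (7 kb, proximal array) scored 80.9 and 124 in the controls, and chr2:112014201-112024200 (10 kb, distal array) scored 92.0 and 103, with no island in either mutant. Their limma adjusted p was 0.815 to 0.829, and a score of 0 means that no island was called, since the smallest deposited score was 64.7.

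Counted by presence alone, 4 array regions were called in the 2 controls but in no mutant, against a genome share of 3.2%, and 1 was called in the 2 mutants but in no control, against 0.565%. Beside those named above, the 4 include chr2:87065801-87074400 (8.60 kb, scores of 94.2 and 73.7) and chr2:89868001-89875200 (7.2 kb, scores of 95.8 and 85.4), both in the middle array. The scores of the 5 regions ran from 73.7 to 149. The median island of a library scored 117 and 95.6 in the controls and 120 and 117 in the mutants. Scores of 124 and 103 in control 2 and 149 in mutant 2 were above the median of their library.

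Bins of 100 kb gave a view that does not depend on how islands were joined. Of the 70 array bins tested 0 passed an adjusted p of 0.05 with limma (smallest adjusted p 0.849), as did 0% of the 3204 bins of the genome. At an unadjusted p under 0.05, 0 array bins were higher and 2 were lower, against 0.687% and 1.5% of all bins. These were chr2:112000001-112100000 in the distal array, covered to 10% and 14.8% in the controls and 0% in both mutants, and chr2:37000001-37100000 in the proximal array, covered to 31.6% and 37.8% in the controls and 24.4% and 8.40% in the mutants. Without control 1, 7 array bins passed, all lower in mutants, among 1458 of 3561 bins of the genome, with a single control left to set against the mutants. The bin means were lower in mutants in 59 of 70 array bins, but when each library was divided by its covered length over the genome they were lower in 31 and higher in 39.

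In coverage, unlike in the shifted scores of regions, the pairs moved in opposite directions. In pair 1 the mutant was covered more than its littermate in 50 of 70 array bins, with a median difference of 4.2 percentage points, and in pair 2 it was covered more in 1 of 70, with a median of -15.7. Over all bins tested the medians were 0 and -4.80. In both pairs alike, 1 array bin (1.43%) was higher in the mutant and 15 (21.4%) were lower, against 7.24% and 11.5% of all bins tested. The widest spread was in chr2:87300001-87400000 of the middle array, where coverage was 29.4% and 76.4% in the controls and 63.0% and 10.4% in the mutants.

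**Figure D4:**
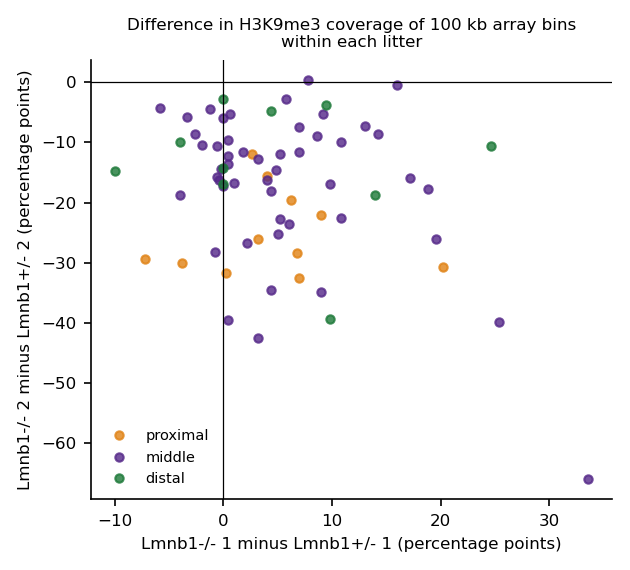
Difference in covered percent between mutant and control for each of the 70 array bins of 100 kb, in pair 1 (x axis) and pair 2 (y axis), in percentage points and coloured by array. Points lie to the right of 0 in 50 bins and above 0 in 1 bin.

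The chromosome 9 receptor array was set beside the chromosome 2 arrays over its inner part, at 38 to 40 Mb. Islands covered 62.2% and 67.0% of it in the controls and 68.7% and 41% in the mutants, which exceeded the 3 arrays of chromosome 2 by 22.3 ± 6.76 percentage points (SD, n = 4), a difference of -22.3 taken as chromosome 2 minus chromosome 9, of the same sign in 4 of 4 libraries (exact sign-flip permutation p = 0.125), and -25.5 to -20.5 with any 1 library left out. Its limits lie inside that array, while those of chromosome 2 reach past the mark, and with the chromosome 9 limits at 37 to 41 Mb the difference was -1.85 percentage points (exact sign-flip permutation p = 0.5). The score per covered kb of the chromosome 2 arrays differed from it by -0.06 ± 0.09 on the log2 scale, less than the spread between libraries.

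H3K4me3 peaks were few and weak between the edges of the arrays, and the strong peaks inside the array limits lay in the upper outer ends of the proximal and distal windows. Within the array limits the control library had 14 of its 15584 H3K4me3 peaks and the mutant library 19 of 17897. All 14 of the control peaks and 14 of the mutant peaks lay outside the edges of the H3K9me3 regions found in all 4 libraries. Between those edges, over 6.55 Mb, the control library had 0 peaks (exact 95% Poisson upper limit 0.563 per Mb, and 0.458 per Mb at 3 counts), and the mutant library had 5, or 0.763 per Mb (exact 95% Poisson interval 0.248 to 1.78, counting error only). The flanks held 9.17 and 11.5 peaks per Mb and the rest of chromosome 2 6.89 and 7.95, in control and mutant. There is 1 library of each genotype, so no difference between them was tested.

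The 5 peaks between the edges were weak. They scored 50.4 at chr2:36997055-36997595 in the proximal array and 50.2, 64.8, 55.5 and 65.7 in the middle array, where the lowest score deposited for that library was 50.01 and its median 594. Each overlapped an H3K9me3 island of the same mouse, and none had a counterpart in the control library. By contrast the 6 highest scoring peaks inside the array limits were in those upper outer ends. The highest, chr2:112294215-112296435 in the distal window, scored 2830 in the mutant and 2111 in the control library. The next, chr2:112206927-112208951, scored 2484 and 2031, and chr2:37213562-37215335 in the proximal window scored 1979 and 1491. A peak at chr2:37297709-37299821 scored 1978 in the mutant library. The 2 peaks of the lower outer end of the proximal window scored 131 and 81.8 in the control and 172 and 66.1 in the mutant library, and the outer ends of the middle window had 0 peaks in either. All 14 peaks of the outer ends had a counterpart in the other genotype, and none overlapped an H3K9me3 island in any library.

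**Figure D5:**
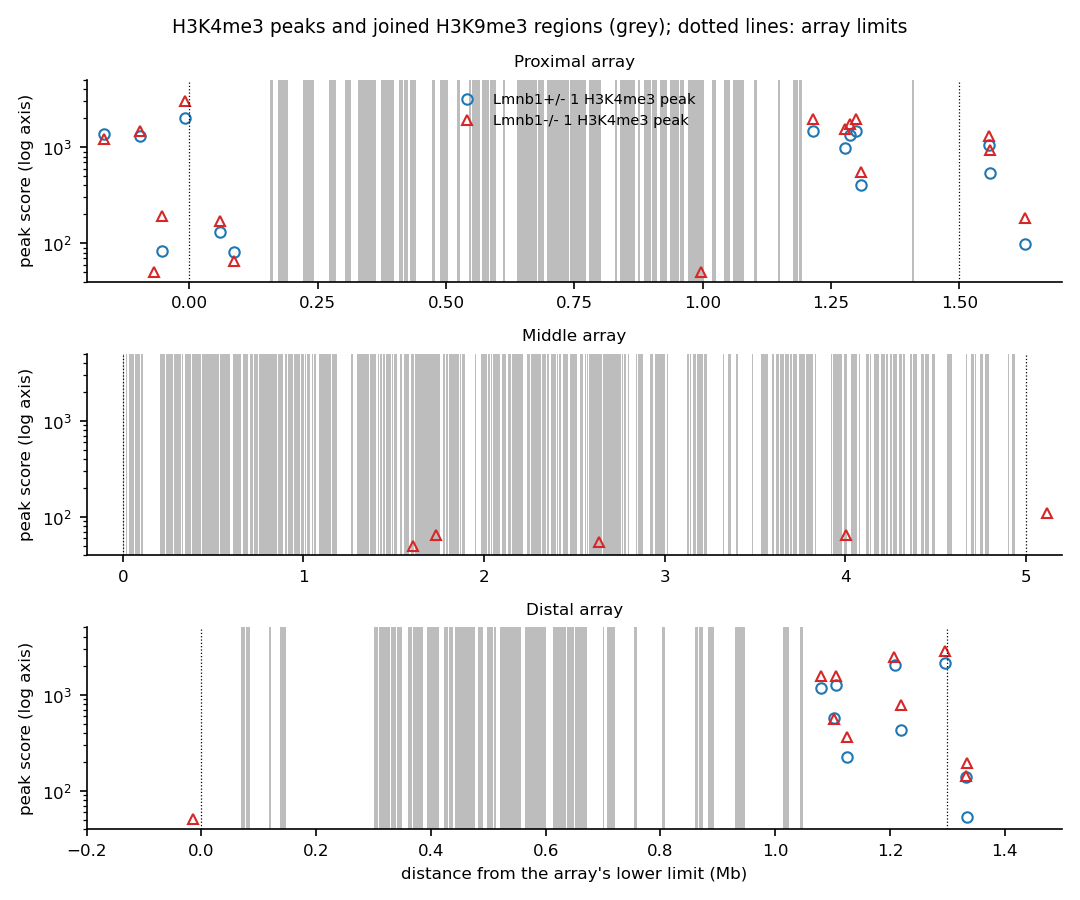
Score of each H3K4me3 peak on a log axis (y axis) against distance from the lower limit of each array in Mb (x axis), for the 1 control and 1 mutant library, with the joined H3K9me3 regions in grey and the array limits dotted. Strong peaks stand in the upper outer ends of the proximal and distal windows, and the 5 mutant peaks over grey regions score 50.2 to 65.7.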

How the data were processed

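Members and lists were chosen with earlier results of these data known. H3K9me3 was measured by FARP-ChIP-seq, a ChIP-seq for few cells, in 4 mice and H3K4me3 in 2 of them. The values the authors deposited are scores: a SICER score for each H3K9me3 island and a peak caller score for each H3K4me3 peak, per library. The authors mapped reads with Bowtie to mm9, keeping unique hits (up to 2 mismatches). SICER was run per library on 200 bp windows, with a gap size of 600 bp and 0.01 as E-value. Reads and input libraries were not used here, so uniquely mappable sequence, which can differ within tandem arrays, was not accounted for.

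A score rises with depth, and the average reads per window were solved from islands of 2 windows (36 of 36 gave whole reads within 1e-06). Islands were cut at the array limits for covered shares. Tests were exact permutations over 2 against 2 libraries, exact sign flips over 4 libraries, and limma 3.58.1 in R 4.3.3 (lmFit, eBayes, Benjamini-Hochberg, threshold 0.05) on regions found in at least 2 libraries, with the smallest island score as pseudocount, and on 100 kb bins with a mean coverage of at least 1%. Fold changes on that scale understate changes from low values. The depth solution, the limma fit and the counting of covered and shared lengths were tested on simulated data, and the other steps were not. Other steps ran in Python 3.11.15 (matplotlib 3.10.9, scipy 1.17.1, pandas 2.3.3, numpy 2.4.6).

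The replicate numbers pair littermates of 1 treatment group, per the labels and the methods, although deviations from the group means correlated at -0.016 over regions and -0.175 over bins. Named were, by rule, the arrays, the 3 longest regions and 2 longest uncovered stretches of each, the top 5 regions by the lowest of their 4 scores, up to 5 regions of a single genotype, up to 6 regions and 6 bins with the smallest unadjusted p that moved alike in both pairs, and up to 6 highest scoring H3K4me3 peaks. Other bins and edges were chosen after their values were seen. Alternatives are in the closing section.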

Additional observations from a re-analysis of the deposited data

Results flagged for a closer look

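In the H3K4me3 data, which the comparisons of H3K9me3 do not use, the mutant library had 5 peaks between the edges of the arrays where the control library had 0. Their scores were 50.2 to 65.7, close to the lowest deposited score of 50.01, and each lay on an H3K9me3 island of the same mouse. Over the genome 1.06% of the mutant and 0.776% of the control H3K4me3 peaks overlapped an H3K9me3 island of the same mouse. With 1 library per genotype the difference was not tested.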

How the results depend on the processing

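Of the 103 recomputed values, 90 kept their direction and their side of the threshold or stayed within the spread. No permutation or sign-flip p could go below 0.125, so for those results only the direction could change. The size of a difference was not part of that count, and the chromosome 9 value of -1.85 given below is among the 90. The covered share, mutant minus control, ranged from -11.9 to 0.756 percentage points when single libraries were left out and turned without mutant replicate 2. The log2 ratio of score per covered kb, mutant to control, ranged from -0.41 to 0.066 and turned without control replicate 2. Against the rest of the genome, that ratio became 0.11 without the 10 highest scoring regions. With a pseudocount of 1, 4 array regions passed (189 of 2803 over the genome), and without control replicate 1, 7 array bins passed (1458 of 3561), where the lone control is assumed to vary like the mutants. Leaving out any other single library gave 0 array bins, and no library left out gave an array region. The mean overlap of libraries was 90.7% over the smaller set and 81.9% of islands covered by at least 50%, and 63.2% to 73.8% with a library left out. The share of regions in all libraries was 64.3% with 1964 islands per library, 46.2% as a share of covered base pairs and 51.3% to 64.9% with a library left out. The covered share of the chromosome 2 arrays minus that of the chromosome 9 array, -22.3 percentage points at 38 to 40 Mb, was -1.85 with that array taken as 37 to 41 Mb. H3K4me3 peaks per Mb fell from 2.12 to 1.09 above the median score and were 0.382 between the edges, an alternative chosen after seeing the data.

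With the replicate block the covered share differed by -5.55 percentage points and 0 array regions and 0 array bins passed, and the block changed no call. With crossed numbers in the block, also added after seeing the data, 0 array regions and 0 array bins passed. Precision is limited by 2 libraries per genotype, unequal depth and islands called per library, and weak marking below the caller's threshold was not detectable.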
